A study of Penicillium oxalicum with 6 samples.

Results

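In mycelium of Penicillium oxalicum, 126 of the 9822 annotated locus tags were both abundant in the strain with POc04478 silenced and at least 2 times as abundant there as in the parental strain. Levels are FPKM, fragments scaled for transcript length and library size, so they can be compared between genes per length. A gene was taken as a member when its mean over the 3 silenced libraries was at least 500 FPKM, its mean over the 3 parental libraries was at least 1 FPKM, the ratio of the means was at least 2 and every silenced value lay above every parental value. The members were thus chosen by the measured FPKM of all 6 libraries, so the levels and ratios below are descriptions and no test of the difference between the strains is drawn from them. The ratios are given with and without parental replicate 1, which differed from the other parental libraries in many genes.

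Penicillium oxalicum is a filamentous fungus that grows on plant biomass by secreting cellulases, hemicellulases and amylases. In such fungi, the genes for these enzymes are repressed on glucose and switched on when only a polymer such as cellulose or starch is left, and a small part of the genome can then supply a large part of the messenger RNA. The sources used here give no gene symbols or products for the members beyond the locus tag, so no function is assigned to any of them, and they are ordered by level, by size of change and by behaviour across libraries.

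Parental libraries are titled PoxKu70, after a deleted gene for a DNA end-joining factor whose loss favours targeted integration, but their genotype field reads WT. Silenced libraries are titled POc04478, after the gene whose silencing accompanied the addition of 5 μM copper ions, and the series title places that silencing in the same △PoxKu70 background. Each group had 3 libraries. Spores were grown for 24 h in glucose medium and then 24 h in enzyme-production medium, with Avicel (microcrystalline cellulose) as carbon source in the protocol but raw starch in the treatment field. The labels do not say whether parental cultures received copper, so effects of silencing and of copper cannot be told apart. They also do not say whether replicates were separate cultures or the silenced strain a single transformant.

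The locus tag matching the silenced gene, POX_c04478, had 159, 116 and 131 FPKM in parental replicates 1, 2 and 3 and 15.9, 17.8 and 19.0 FPKM in silenced replicates 1, 2 and 3, so 13.0% of the parental mean remained. The groups did not overlap; an exact permutation test, two-sided, gave p = 0.1, below which 3 against 3 libraries cannot go. Across all tested IDs, log2(FPKM + 1) correlated at 0.939 to 0.975 among parental and 0.977 to 0.986 among silenced libraries (Pearson, across genes). The files hold no fragment counts. The steps of low values put the depth of the other libraries at 1.05 to 1.58 times that of parental replicate 1. That estimate is rough, as it rests on 455 of 5378 ratios of low values.

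Together the members made up a larger part of the transcript pool in the silenced strain, which follows from the rule that chose them. Their summed FPKM was 3.04%, 5.67% and 5.81% of the library total in parental replicates 1, 2 and 3. In silenced replicates 1, 2 and 3 it was 17.3%, 17.2% and 16.9%. The means were 4.84% ± 1.56 and 17.1% ± 0.189 (SD, n = 3 each), and the parental spread came mostly from replicate 1, without which the parental mean was 5.74%. The 10 members with the highest silenced means held 1.68% ± 0.858 of the parental and 6.88% ± 0.417 of the silenced total (SD, n = 3 each). The rule mirrored between the strains (parental mean of at least 500 FPKM, ratio of at least 2 the other way, no overlap) selected 109 locus tags, whose share went from 16.2% ± 0.871 in the parental to 4.24% ± 0.153 in the silenced libraries (SD, n = 3 each). FPKM is relative to the library total, so a larger share for some transcripts lowers the values of the others.

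**Figure D1:**
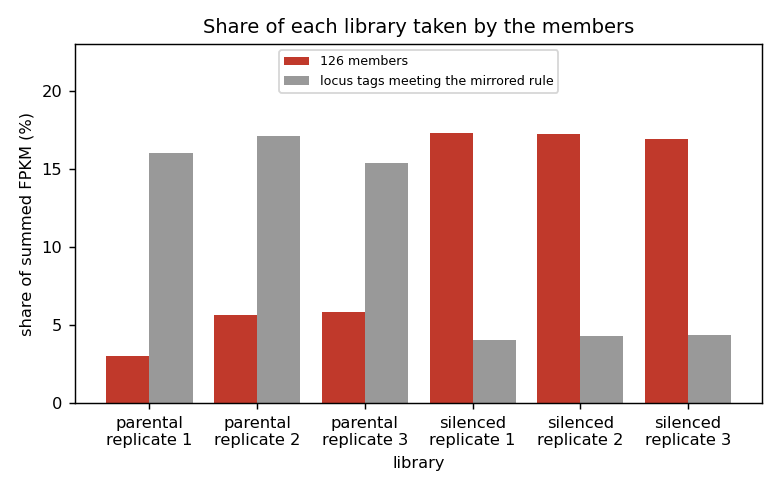
Bars give the percentage of each library's summed FPKM held by the 126 members and by the 109 locus tags of the mirrored rule. Each library has 1 bar per set, without error bars. The members take 3.04% to 5.81% of the parental and 16.9% to 17.3% of the silenced libraries. The mirrored set does the opposite, and both directions are set by construction.

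Abundance in the silenced strain was the first condition, and 415 locus tags met it. The members were 30.4% of these. Of the other 289, 256 had a ratio of means between 0.5 and 2 and 33 had a ratio of 0.5 or lower. The condition of no overlap removed no gene, since every locus tag that passed the other conditions also passed this one. The median silenced mean of the members was 958 FPKM, with a range of 513 to 16848 FPKM. Of the 126, 69 lay under 1000 FPKM, 34 between 1000 and 2000, 16 between 2000 and 5000 and 7 above 5000. Their parental means ran from 20.5 to 4307 FPKM with a median of 331 FPKM; 37 members already had at least 500 FPKM in the parental strain and 12 had under 100. The members therefore include both genes that were abundant in both strains and genes that were of low to middle level in the parental strain. Ranked by mean among all locus tags, 6 members were among the 100 highest in the parental and 26 among the 100 highest in the silenced strain.

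**Figure D2:**
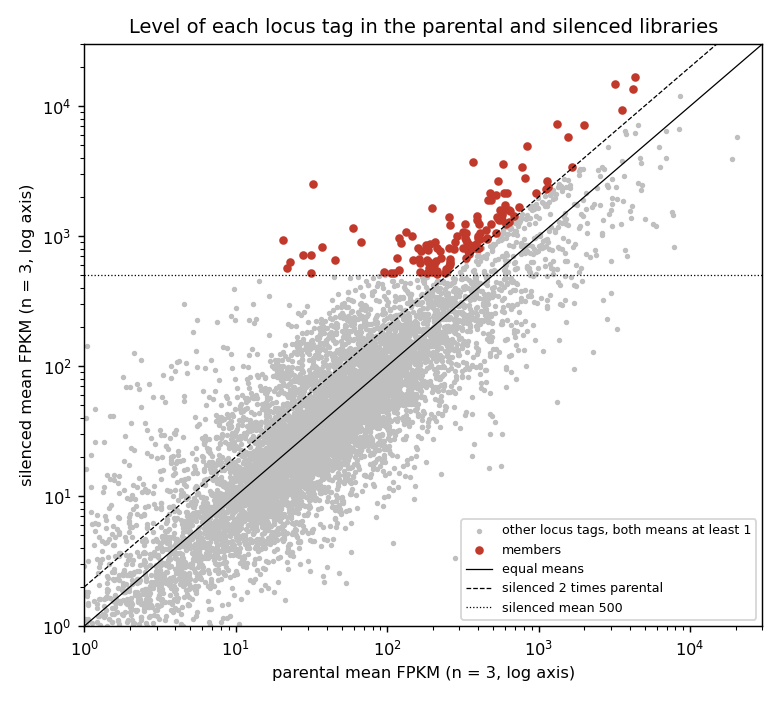
Each point is a locus tag with a mean of at least 1 FPKM in both groups, placed by its parental mean (x, log axis) and silenced mean (y, log axis), n = 3 libraries each; red points are the 126 members. They fill the corner above 500 FPKM and above the dashed line where the silenced mean is 2 times the parental mean, from a parental mean of 20.5 FPKM on the left to 4307 FPKM on the right.

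The ratio of means was modest for most members. It lay between 2 and 3 for 58, between 3 and 5 for 44, between 5 and 10 for 12, between 10 and 20 for 5 and above 20 for 7. The median was 3.17. Without parental replicate 1 the median was 2.67 and the range 1.57 to 71.8, against 2.01 to 78.9 with it. For 75 members the lowest silenced value was at least 2 times the highest parental value.

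At the edge of the level condition, POX_a01336, POX_b02825 and POX_e06314 were just inside with silenced means of 513, 515 and 516 FPKM and ratios of 2.40, 4.62 and 4.85, which were 2.08, 4.56 and 4.88 without parental replicate 1. POX_e06248, POX_f07668 and POX_a00376 were just outside with silenced means of 499.6, 491 and 488 FPKM, although their ratios were 5.13, 5.55 and 11.0, or 5.01, 5.59 and 11.3 without parental replicate 1. At the edge of the ratio condition, POX_a00546, POX_g08679 and POX_b03115 were inside at 2.01, 2.02 and 2.03, or 2.27, 2.09 and 1.62 without parental replicate 1. POX_b02627, POX_b02649 and POX_d05175 were outside at 1.99, 1.98 and 1.96, or 2.10, 2.23 and 1.72 without it. Genes lay close to both edges on either side. At the level edge the step from 499.6 to 513 FPKM was wider than the other steps between the genes listed there.

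The fit across all tested IDs (limma on log2(FPKM + 1), Benjamini-Hochberg adjusted p under 0.05) called 24.4% of the 9341 tested IDs higher in the silenced strain, and every silenced value lay above every parental value for 29.2%. All 126 members passed the filter on low values. Of these, 119 were called higher and 7 were not called. Since the rule used this contrast, nothing is read from that count. The median log2 fold change was 1.77 over the members, for which the rule required a ratio of at least 2, and -0.12 over all tested IDs. Nothing is read from that difference either. The 7 that were not called were POX_a01645, POX_a01646, POX_c03697, POX_c03738, POX_c04065, POX_c04740 and POX_d06049. In each of them parental replicate 1 was lower than both other parental values by 2-fold or more, and without that library 6 of them, all except POX_a01645, were called.

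The most abundant member was POX_a00166 on chromosome I, which ranked 21 among the locus tags by parental mean and 1 by silenced mean. It had 4417, 3192 and 5313 FPKM in parental replicates 1, 2 and 3 and 13470, 15102 and 21973 FPKM in silenced replicates 1, 2 and 3. Silenced replicate 3 stood above the other silenced libraries, and parental replicate 1 lay between the other parental libraries. The ratio was 3.91, and 3.96 without parental replicate 1.

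The next 3 members by level behaved differently in parental replicate 1. POX_c03646 had 810, 3727 and 5065 FPKM in the parental and 13538, 15350 and 15809 FPKM in the silenced libraries, in replicate order. POX_e06527 had 976, 5266 and 6246 FPKM against 12089, 13350 and 15194 FPKM. POX_e06689 had 1293, 5205 and 4196 FPKM against 10035, 10052 and 7861 FPKM. In all 3 genes parental replicate 1 was the lowest library by a wide margin. The ratios of these genes were 4.66, 3.25 and 2.61, and without parental replicate 1 they were 3.39, 2.35 and 1.98, so POX_e06689 then fell short of the ratio of 2.

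The same shape was seen in 5 of the other 6 among the 10 highest. In POX_g08549 the parental values were 348, 1516 and 2076 FPKM and the silenced values 7028, 7361 and 7414 FPKM. In POX_e06400 they were 490, 2696 and 2772 FPKM against 7152, 6990 and 7448 FPKM, and in POX_a00842 they were 366, 2120 and 2181 FPKM against 5752, 5656 and 5872 FPKM. These 3 genes had ratios of 5.53, 3.62 and 3.70, which were 4.05, 2.63 and 2.68 without parental replicate 1. Their silenced values were more even than the members' median, with coefficients of variation (CV, the SD as a percentage of the mean) of 2.88%, 3.23% and 1.88%. POX_f07847 had 130, 1153 and 1244 FPKM against 5276, 5025 and 4387 FPKM. POX_c03874 had 92.3, 776 and 883 FPKM against 3112, 3534 and 4194 FPKM. In both, parental replicate 1 held about 11% of the mean of the other parental libraries (10.9% and 11.1%), and the ratios went from 5.81 to 4.09 and from 6.19 to 4.36 without it.

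POX_a00279 on chromosome I was the exception among these 6. Its parental values were 450, 211 and 442 FPKM, with replicate 2 the lowest, and its silenced values were 3024, 3944 and 4180 FPKM. Its ratio was 10.1, the largest of the 10 most abundant members, and 11.4 without parental replicate 1. It moved from rank 562 to rank 23 among the locus tags.

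**Figure D3:**
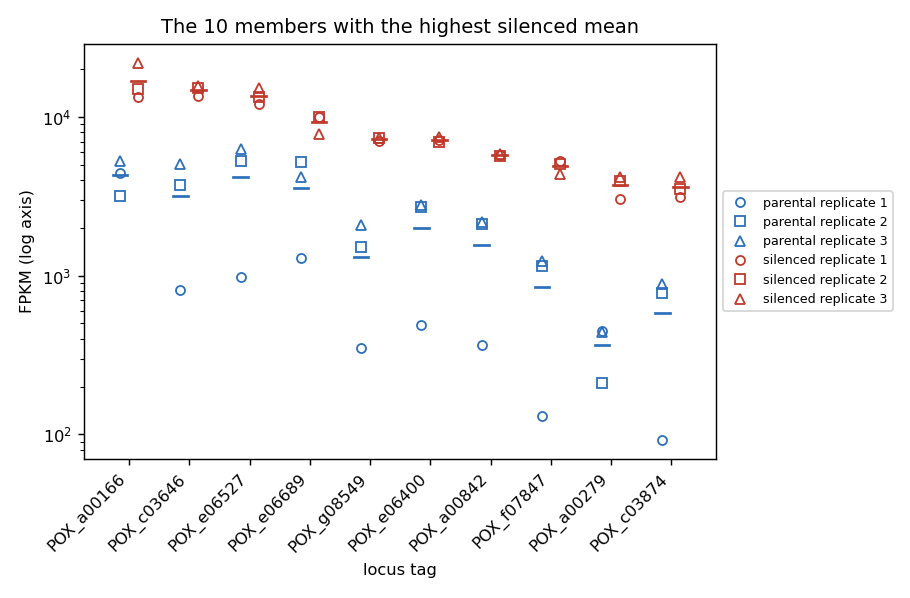
FPKM (y, log axis) of the 10 members with the highest silenced mean, with 1 symbol per library and a short line at each group mean (n = 3). All red silenced symbols lie above all blue parental symbols, and in 8 of the 10 genes the blue circle of parental replicate 1 is lower than both other blue symbols by 2-fold or more.

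The largest ratios belonged to genes with low to middle parental levels. POX_g08983 on chromosome VII had 25.7, 46.2 and 24.5 FPKM in the parental and 2736, 2613 and 2253 FPKM in the silenced libraries, and moved from rank 4391 to rank 45. Its ratio was 78.9, and 71.8 without parental replicate 1. POX_g08545, also on chromosome VII, had 18.6, 14.3 and 28.6 FPKM against 1333, 995 and 470 FPKM. Its ratio was 45.5, and 43.5 without parental replicate 1, yet its silenced values spread more widely than those of any other member, with a CV of 46.6%. The lowest of them was still 16.4 times the highest parental value.

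Next in order were 3 genes with ratios above 25. POX_b03010 on chromosome II had 11.8, 18.2 and 38.3 FPKM in the parental and 515, 622 and 753 FPKM in the silenced libraries. Its ratio of 27.7 rested in part on single parental libraries, since it was 22.3 without parental replicate 1 and 42.1 without parental replicate 3. POX_e06800 on chromosome V had 18.1, 25.3 and 21.6 FPKM against 589, 569 and 561 FPKM, a ratio of 26.5. It was even in both groups, with CVs of 16.4% and 2.51%, and its ratio was 24.5 without parental replicate 1. POX_b01936 on chromosome II had 12.6, 44.6 and 26.6 FPKM against 847, 763 and 528 FPKM, a ratio of 25.5 that was 20.04 without parental replicate 1.

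The other 5 of the 10 largest ratios lay between 14.5 and 22.8. POX_g08952 had parental values of 13.8, 46.2 and 34.9 FPKM and silenced values of 790, 730 and 643 FPKM. POX_a00848 had 31.5, 51.1 and 28.5 FPKM against 931, 809 and 711 FPKM. Parental replicate 1 was the lowest in the first of these and between the others in the second, and the ratios of 22.8 and 22.1 were 17.8 and 20.5 without it. POX_d04974 on chromosome IV had 52.2, 54.1 and 71.4 FPKM against 1118, 1173 and 1160 FPKM, and POX_f08390 on chromosome VI had 36.8, 56.8 and 42.1 FPKM against 619, 623 and 720 FPKM. Both were steady, with silenced CVs of 2.48% and 8.72%, and their ratios of 19.4 and 14.5 were 18.3 and 13.2 without parental replicate 1. POX_b01935 had 51.3, 24.3 and 19.0 FPKM against 612, 560 and 377 FPKM; it was the only member in which parental replicate 1 lay at least 2-fold above both other parental libraries, and its ratio of 16.4 became 23.9 without that library.

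**Figure D4:**
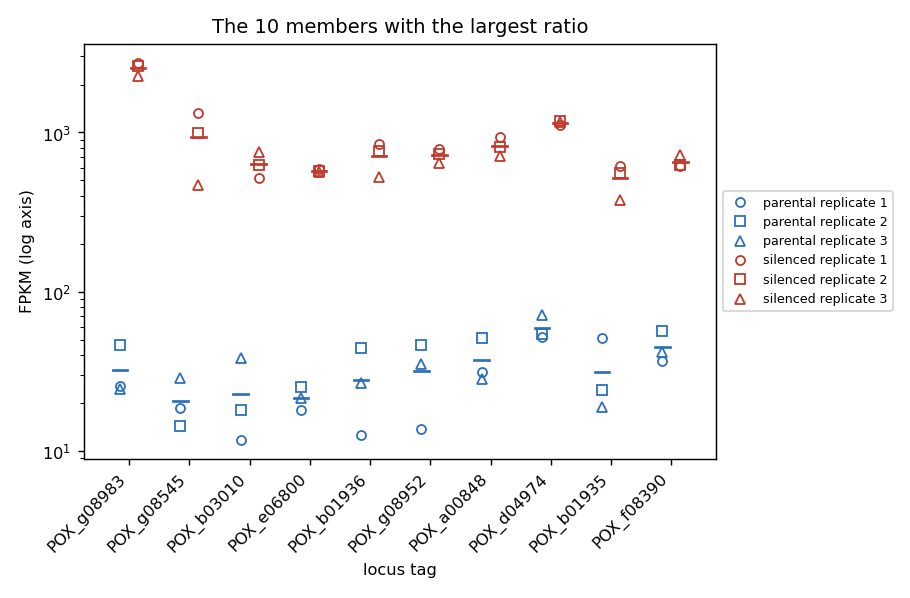
FPKM (y, log axis) of the 10 members with the largest ratio of means, with 1 symbol per library and a short line at each group mean (n = 3). Parental values lie at or below 71.4 FPKM and silenced values at or above 377 FPKM, and POX_g08545 shows the widest silenced spread.

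Between these extremes, the members with ratios of 5 to 10 included 5 that were picked after their values were seen because they are the next largest of their kind. POX_b03242 had 182, 236 and 174 FPKM in the parental and 1970, 1725 and 1269 FPKM in the silenced libraries. POX_c03606 had 89.0, 155 and 113 FPKM against 1117, 999.4 and 788 FPKM. Both had silenced replicate 3 as the lowest silenced library, and their ratios were 8.38 and 8.12, or 8.07 and 7.21 without parental replicate 1. POX_a01224 had 27.8, 231 and 140 FPKM against 1319, 1108 and 776 FPKM, and its ratio went from 8.03 to 5.75 without parental replicate 1. POX_b02435 and POX_b02409, both on chromosome II, had ratios of 7.16 and 6.94, or 6.40 and 6.24 without parental replicate 1, with parental means of 123 and 145 FPKM and silenced means of 882 and 1009 FPKM. In those genes parental replicate 1 was the lowest parental library by less than 2-fold.

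Parental replicate 1 split the members into classes. In 44 members (34.9%) it was lower than each of the other parental libraries by 2-fold or more, in 42 below both by less, in 22 between them and in 18 above both. The first class made up 8.15% of the 8468 tested locus tags, 11.1% of the other 289 abundant locus tags and 3.67% of the 109 locus tags of the mirrored rule. A low parental value lowers the parental mean and so raises the ratio that chose the members, so these shares are not independent of the rule, and the difference between them was not tested. In the first class parental replicate 1 held a median of 24.8% of the mean of the other parental libraries, and the class median ratio was 3.31, or 2.47 without that library. The 22 members with parental replicate 1 between the others had a median ratio of 3.60, or 3.70 without it. Of the 20 locus tags with the highest silenced means, 8 were members, and 7 of these were in the first class.

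The ratio fell without parental replicate 1 in 98 members and rose in 28. It stayed within a factor of 1.1 in 51 members, and in 51 it had been at least 1.2 times the value without that library. For 109 members the ratio was still at least 2 without parental replicate 1 and for 17 it was below 2, all of which had that library as the lowest parental one. When the whole rule was applied without parental replicate 1, 140 locus tags met it, of which 109 were members and 31 were not.

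**Figure D5:**
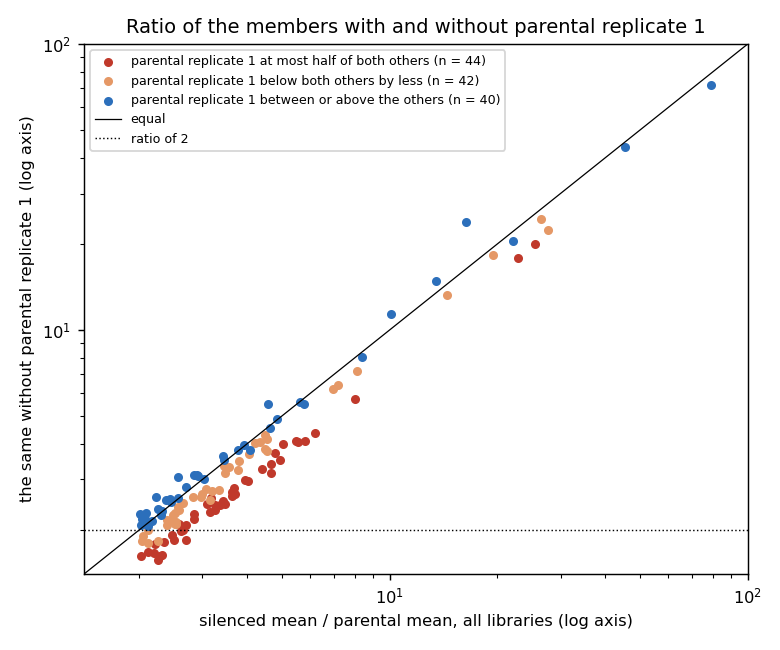
Each point is 1 of the 126 members, placed by the ratio of the silenced to the parental mean with all 6 libraries (x, log axis) and without parental replicate 1 (y, log axis); the colour gives where that library lies relative to the other parental libraries. The 44 red points all lie below the line of equality, and 17 members lie below the dotted line at a ratio of 2.

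The largest moves were in POX_d06049, POX_c04065, POX_a01645, POX_b01935 and POX_f07847. POX_d06049 on chromosome IV had 11.4, 436 and 329 FPKM in the parental and 1024, 1228 and 1381 FPKM in the silenced libraries, and its ratio of 4.68 was 3.16 without parental replicate 1 and 7.11 without parental replicate 2. Parental replicate 1 held 2.99% of the mean of the other parental libraries, the lowest share of any member. POX_c04065 on chromosome III had 36.4, 850 and 828 FPKM against 1316, 1486 and 1836 FPKM, and its ratio went from 2.71 to 1.84. POX_a01645 on chromosome I had 43.8, 509 and 474 FPKM against 567, 692 and 1050 FPKM, and its ratio went from 2.25 to 1.57, the lowest of all members. Its lowest silenced value was only 1.11 times its highest parental value, the narrowest gap among the members.

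Values of the members varied less within the silenced than within the parental group. The median CV was 10.2% in the silenced and 31.5% in the parental libraries, and the silenced CV was the smaller in 111 of 126 members (88.1%). The same held for 94.1% of the other abundant locus tags and 74.3% of the tested locus tags. The median silenced CV was 6.61% in the other abundant locus tags and 10.3% in the tested locus tags, and it was at most 10% in 62 of the 126 members and in 211 of the 289 other abundant locus tags. The median parental CV was 22.99% in the other abundant and 18.98% in the tested locus tags. Among the members it was 61.8% in the 44 where parental replicate 1 was at least 2-fold below both others. It was 24.3% in the 42 where that library was low by less and 18.5% in the 22 where that library lay between the others. A low parental value raises the ratio that chose the members, so their parental CVs are not independent of the rule. The differences between these sets and classes were not tested. The smallest silenced CV was in POX_d06010 on chromosome IV, with 2384, 2389 and 2390 FPKM, a CV of 0.131%, against 1278, 928 and 1254 FPKM in the parental libraries. POX_c03736 had 522, 524 and 517 FPKM and POX_b03100 had 666, 662 and 672 FPKM in the silenced libraries, with CVs of 0.715% and 0.728%. At the other end were POX_g08545 (46.6%), POX_a01645 (32.5%) and POX_a00166 (26.8%).

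The silenced libraries differed in how often each was the highest or lowest among the members. Silenced replicate 1 was the highest in 65 members (51.6%), replicate 3 in 44 and replicate 2 in 17. Silenced replicate 3 was the lowest in 75 (59.5%). Over the tested locus tags this differed, as replicate 1 was the highest in 25.1% and replicate 3 the lowest in 27.6%. Among the 289 other abundant locus tags, replicate 1 was the highest in 36.0% and replicate 3 the lowest in 49.8%. The classes of parental replicate 1 differed here too, since in the 44 members where it was at least 2-fold low, silenced replicate 3 was the highest in 23 and replicate 1 in 14, while in the 42 where it was low by less, these numbers were 11 and 27. The shares of members with each library highest or lowest were not tested.

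The members were spread over the 8 chromosomes. Of the 125 that matched the gene table (POX_c03975 did not), 26 lay on chromosome III, 25 on I, 21 on II, 17 on VII, 14 on V, 12 on VI, 8 on IV and 2 on VIII. As a share of the abundant locus tags of each chromosome, they ran from 13.3% on VIII and 22.2% on IV to 35.4% on VII and 46.4% on III. The share over all abundant locus tags was 30.4%, and chromosome VIII had only 15 abundant locus tags. Chromosomes III and VII also had the largest shares of all their locus tags, at 2.04% each. The differences between chromosomes were not tested.

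Side by side lay 8 of the members, in 4 pairs of direct neighbours. The number for randomly placed genes was not computed. POX_c04064, beside POX_c04065 on chromosome III, had 431, 547 and 631 FPKM in the parental and 1280, 1352 and 1507 FPKM in the silenced libraries, so parental replicate 1 was far closer to the other parental libraries than in its neighbour. Its ratio was 2.57, and 2.34 without that library. On chromosome II, POX_b03115 had 316, 806 and 788 FPKM against 1350, 1295 and 1223 FPKM, and POX_b03116 had 216, 500.5 and 643 FPKM against 954, 968 and 945 FPKM. Both dropped below a ratio of 2 without parental replicate 1, to 1.62 and 1.67. The third pair, POX_a01645 and POX_a01646, had the same order of libraries in the silenced group, and POX_a01646 had 46.1, 353 and 371 FPKM against 427, 589 and 739 FPKM. Its ratio went from 2.28 to 1.62.

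The fourth pair, POX_b01935 and POX_b01936, were the 2 locus tags nearest to an end of chromosome II in the gene table. They took opposite positions in parental replicate 1, which was the highest parental library for the first (51.3 FPKM) and the lowest for the second (12.6 FPKM), while in the silenced group both had replicate 1 highest and replicate 3 lowest. POX_g08530, the third locus tag from an end of chromosome VII, was the only other member among the 5 locus tags nearest a chromosome end, with 145, 609 and 416 FPKM against 1527, 1491 and 1275 FPKM. The labels state no strand-specific step, so reads from overlapping genes could not be told apart; by the gene table, 1 member overlapped a neighbouring locus tag.

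The direct neighbours of members that were not members themselves numbered 240, of which 211 passed the filter. The fit called 66 of these higher (31.3%) and 45 lower (21.3%), and 100 were not called. Of the 8468 tested locus tags, the like set, 2169 were called higher and 2544 lower. Over all tested IDs, which include those without a locus tag, the shares called were 24.4% higher and 30.4% lower. The median log2 fold change of the neighbours was 0.07, against -0.10 over the tested locus tags and -0.12 over all tested IDs. The difference was not tested. These neighbours are the adjacent locus tags that did not meet the rule, which screened them on the same FPKM values. Their calls and fold changes are therefore not independent of the rule.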

How the data were processed

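The 6 libraries (3 parental, 3 silenced) are poly(A) RNA-seq, per the labels' protocols. bcl2fastq and HISAT2 are listed, with no version, by the submitters' processing notes. Counting program, build and annotation: not given in the sources used here. A deposited file gives 1 library as FPKM computed by the authors, per the file headers, for 10899 IDs, of which 9822 are locus tags. A prefix on the tags of parental replicate 2 was removed. The RefSeq gene table of assembly ASM172317v3 matched 9718 tags and was used only for chromosome and gene order; it gives no products, so gene lists by function and protein and promoter features could not be used, and no coordinates are printed.

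The members and the rules for named genes were chosen with earlier results of these data known. Named are the 10 highest silenced means, the 10 largest ratios, genes at each threshold, the 5 ratios moved most without parental replicate 1, adjacent members and the 3 smallest and 3 largest silenced CVs; other genes were chosen after their values were seen. Means, SDs and ratios were computed on FPKM as deposited. All IDs were fitted together on log2(FPKM + 1) by limma 3.58.1 (R 4.3.3), with a trended variance. The fit was also run on simulated data with planted changes and the same spread in both groups. The simulation held neither the wider parental spread nor a parental library that stands apart. It therefore cannot vouch for the calls made here. An ID entered if 3 or more of the 6 libraries reached 1 FPKM (9341 IDs). Fold changes on this scale understate those of low genes. Whether replicates are separate cultures is not stated, so p-values may rest on technical spread. No libraries were identical. Relative depth was estimated from ratios of values between 0.15 and 1.2 FPKM, as the offsets that placed the highest number of ratios, 455 of 5378, within 0.03 on the log2 scale, so the estimate rests on a small part of them; counting error behind single values is not known. Alternatives were pseudocounts, filters, scaling, a replicate block, no trend, other rule limits and leaving out each library.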

Additional observations from a re-analysis of the deposited data

Results flagged for a closer look

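The members are locus tags only, and none of the 1077 IDs without a locus tag met the same rule. Among the 11 of them with a silenced mean of at least 500 FPKM, 1 had a ratio of at least 2, and it is listed here because its signal lies outside the locus tags and above its parental level. Its silenced mean was 1988 FPKM, but its silenced values were 0.19, 719 and 5245 FPKM in replicates 1, 2 and 3, against 25.1, 5.19 and 5.12 FPKM in the parental libraries. The groups overlapped, since silenced replicate 1 lay below every parental library, and no direction is read from the mean.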

How the results depend on the processing

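The number of members depends on the limits of the rule. It was 260 with a silenced mean of at least 250 FPKM, 57 with at least 1000 FPKM, 214 with a ratio of at least 1.5 and 41 with a ratio of at least 4, against 126. It was 115 to 140 without 1 library, 134 with group medians and 159 after median-of-ratios scaling, which kept all 126. That scaling moved the median log2 fold change of all tested IDs from -0.12 to 0.0017 by construction. With locus tags alone as denominator, the members' share was 18.9% of the silenced and 5.61% of the parental libraries. The median ratio was 2.67 to 3.47 without 1 library. Of the 119 members called higher, 95 were called in each alternative of pseudocount, filter, scaling, trend, block and left-out library. The count was 96 to 125 without 1 library: 99, 100 and 96 without silenced replicate 1, 2 or 3, and 125 without parental replicate 1. All IDs called higher numbered 1603 to 2536 without 1 library. Of the 24 calls lost without at least 1 silenced library, 22 were members with parental replicate 1 at least 2-fold below both others; the cause was not tested. Among the 10 highest silenced means, 7 lost the call under at least 1 alternative. With the replicate number as a block, 120 members and 2124 IDs were called higher, against 119 and 2277. Deviations from the group means correlated at 0.001, 0.029 and 0.123 for numbers 1, 2 and 3, and some libraries correlated better with another number. Deviations within a group of 3 are not independent, so these values cannot show whether the numbers pair libraries. Single libraries moved some ratios of named members by over 1.5 times, as POX_b03010 had 42.1 without parental replicate 3 and POX_d06049 had 7.11 without parental replicate 2, against 27.7 and 4.68. With group medians in place of means, POX_c04065 had 1.795 and POX_a01645 had 1.46, against 2.71 and 2.25. Depth in fragments is not given, which limits what can be said of the lowest parental values.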
